A study of Mus musculus with 6 samples.

Results

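Plasminogen activators and the serpins grouped with them were examined in beige adipocytes, thermogenic fat cells that arise within white fat depots. The genes were Plau and Plat, which encode the urokinase-type and tissue-type plasminogen activators, Plaur, which encodes the urokinase receptor, and the serpin genes Serpinb2, Serpine2 and Serpinf1. They were taken by gene name from the deposited table, and all 6 were found among its 13962 genes. All 6 also passed the filter on low counts. The set was chosen by the counts of the libraries labelled knockout against those of the controls, with those results already known, so the differences between groups given for these genes are descriptions and support no inference about the set.

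The libraries labelled knockout (n = 3) came from TLE3F/F CreERT2 preadipocytes that received 500 nM 4-hydroxytamoxifen, which activates Cre, on day 4 of differentiation for 24 hours, and the control libraries (n = 3) came from the same floxed, Cre-bearing cells given ethanol instead. All cells were C57BL/6 preadipocytes of inguinal fat, immortalized with the large T antigen, grown with insulin (20 nM), T3 (1 nM) and rosiglitazone (1 uM) and harvested on day 10. The promoter driving Cre and the number of animals behind the line are not stated in the labels, cells lacking Cre were not given tamoxifen here, and nothing says that replicates were separate cultures, so the spread between libraries may be technical. Poly(A) RNA was counted per gene, with 14606228 to 19294632 counts per library.

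Tle3, which encodes the Groucho-family co-repressor targeted by the deletion, was higher in the libraries labelled knockout, at 290 ± 3.76 CPM (read counts scaled to library size) against 152 ± 0.434 CPM in controls (SD, n = 3 each). Counts over the whole gene also take in exons outside the floxed part and cannot check the labels, so every direction given here rests on the labels. All 10 listed adipocyte genes had a mean of at least 1 CPM. They summed to 13003 to 14933 CPM in the libraries labelled knockout and 11484 to 13734 CPM in controls. All 12 fibroblast and preadipocyte markers measured also reached 1 CPM, with sums given below, so this cut does not settle identity. Beige identity was not checked by these genes.

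Plasminogen is an inactive precursor that the activators cut to make plasmin, a protease that dissolves fibrin and can trim other matrix proteins. Urokinase acts mainly at the cell surface, where its receptor holds it, whereas the tissue-type activator works best on fibrin. Serpins of this system are suicide inhibitors that trap a protease in a covalent complex, which the scavenger receptor LRP1 then removes from the cell surface. Serpinb2 encodes PAI-2, a largely intracellular urokinase inhibitor also made by macrophages, and Serpine2 encodes protease nexin-1, which inhibits thrombin, urokinase and other serine proteases. Serpinf1 encodes pigment epithelium-derived factor, a serpin by fold that does not inhibit proteases and is known to act on vessels and on lipolysis in fat.

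Serpinb2 and Plau stood out among the 6 genes, with lower levels in every library labelled knockout than in any control by a clear margin. Serpinb2 fell by 73.0% and Plau by 30.1%. Plat, Serpine2 and Plaur were between 12.7% and 19.9% lower, and Serpinf1 differed by 3.87%. In the edgeR fit across all genes, 3 of the 6 were lower at an adjusted p under 0.05 (Serpinb2, Plau and Serpine2), where 12.3% of the 13192 tested genes changed and 5.44% fell. For 4 of the 6 the groups did not overlap, all lower in the libraries labelled knockout, where 31.8% of all tested genes did not overlap and 15.8% did so with lower values. The fold change was below 0 for 6 of 6, as it was for 50.6% of all tested genes. The median log2 fold change was -0.26 over the 6 genes and -0.0025 over all tested genes. Since this comparison chose the genes, these counts describe them only. In bulk RNA, fewer cells expressing a gene and less RNA per cell cannot be told apart.

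**Figure D1:**
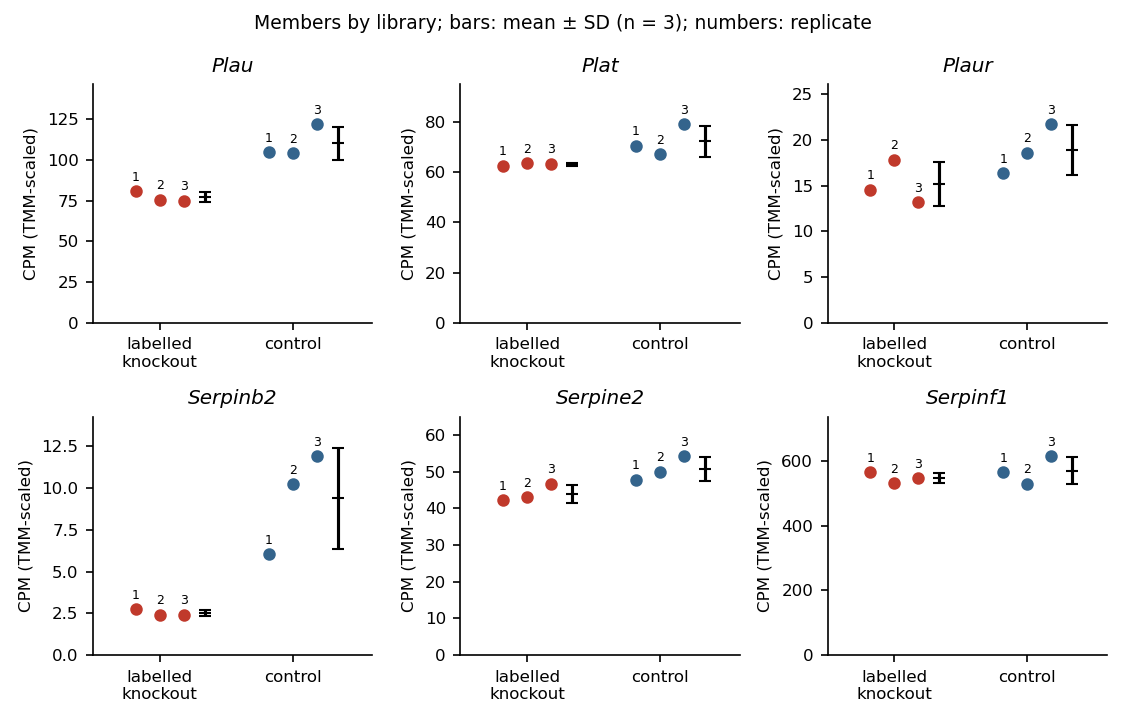
TMM-scaled CPM (vertical axes, each from 0) of the 6 genes in the 3 libraries labelled knockout and the 3 controls; points are libraries with their replicate number, bars are mean ± SD. Plau and Serpinb2 lie lower in every library labelled knockout than in any control, Plat and Serpine2 do so by narrow margins, and the groups overlap for Plaur and Serpinf1.

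Plau, the urokinase gene on chromosome 14, had 1296, 1094 and 1120 counts, or 80.8, 75.6 and 75.0 CPM, in libraries labelled knockout 1 to 3. In controls 1 to 3 it had 1859, 1537 and 2390 counts, or 105, 104 and 122 CPM. The groups did not overlap, and the lowest control was 1.29 times the highest library labelled knockout. The means were 77.1 ± 3.19 CPM in the libraries labelled knockout and 110 ± 10.2 CPM in controls, or a log2 change of -0.52 (SE 0.065, 95% interval -0.66 to -0.37). Without any 1 library the log2 fold change ran from -0.56 to -0.43, with Plau past the threshold in all 6 of these fits.

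Plat, the tissue-type activator gene on chromosome 8, was much less changed than Plau. It had 62.5, 63.6 and 63.3 CPM in libraries labelled knockout 1 to 3, against 70.4, 67.0 and 79.0 CPM in controls 1 to 3. The groups did not overlap, although the gap between the closest libraries was small, the lowest control standing at 1.05 times the highest library labelled knockout. Means were 63.1 ± 0.58 CPM in the libraries labelled knockout and 72.2 ± 6.19 CPM in controls, or a log2 change of -0.20 (SE 0.060, 95% interval -0.33 to -0.063) that missed the threshold across all genes. Without control 2 it passed, with a log2 fold change of -0.24, and without control 3 it did not pass, with -0.12.

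The ratio between the activator transcripts restates the differences of Plau and Plat given above. Since this comparison chose both genes, the ratio describes them only. Plau counts were 1.29, 1.19 and 1.19 times Plat counts in libraries labelled knockout 1 to 3, against 1.49, 1.55 and 1.54 times in controls 1 to 3. This ratio, taken within each library, does not depend on library scaling and did not overlap between the groups (1.22 ± 0.061 in the libraries labelled knockout and 1.53 ± 0.035 in controls). It compares reads and not molecules, since the transcripts differ in length.

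Plaur, the gene on chromosome 7 for the GPI-anchored receptor that holds urokinase at the cell surface, was measured less precisely. It had 14.6, 17.8 and 13.2 CPM in libraries labelled knockout 1 to 3, against 16.4, 18.6 and 21.7 CPM in controls 1 to 3. Library 2 of the group labelled knockout was above control 1, so the groups overlapped. The log2 fold change was -0.32 (SE 0.13, 95% interval -0.60 to -0.042) and did not pass the threshold across all genes. The spread between libraries was 15.7% of the mean in the group labelled knockout and 14.3% in controls, against 6.60% and 5.502% from counting alone.

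Serpinb2, the PAI-2 gene on chromosome 1, had the largest fold change of the 6 genes and the lowest level. It had 44, 35 and 36 counts in libraries labelled knockout 1 to 3, or 2.74, 2.42 and 2.41 CPM, and 107, 151 and 233 counts in controls 1 to 3, or 6.03, 10.2 and 11.9 CPM. Every control lay well above every library labelled knockout, by at least 2.20 times, but control 1 lay well below controls 2 and 3. The means were 2.52 ± 0.19 CPM in the libraries labelled knockout and 9.38 ± 3.02 CPM in controls, or a log2 change of -1.89 (SE 0.25, 95% interval -2.44 to -1.34). The fold change in the libraries labelled knockout was the 18th lowest of the 13192 tested genes. It ran from -2.13 without control 1 to -1.66 without control 3, and Serpinb2 passed the threshold in all 6 of these fits.

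Serpinb2 varied more among the controls. Its coefficient of variation was 7.51% in the group labelled knockout, below the 16.2% that counting alone would give, and 32.2% in controls, where counting gives 7.82%. Serpinb2 lies in a cluster of 12 Serpinb genes, of which the table used here held 2, Serpinb2 and Serpinb8. In the GENCODE M21 annotation its 3′ part overlaps the span of Serpinb10 on the same strand. Whether exons of both genes overlap there was not checked, so it is not known whether reads of the shared stretch are ambiguous. Serpinb8, which encodes another intracellular serpin of the cluster, was at 29.2 ± 1.88 CPM in the libraries labelled knockout and 30.9 ± 3.35 CPM in controls, with a log2 fold change of -0.086 (SE 0.084, edgeR adjusted p 0.558).

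The sequences upstream of Serpinb2 and Plaur, the urokinase inhibitor and urokinase receptor genes, are shown. Both carry a match to the AP-1 motif in the 250 bases before a RefSeq start, while their base composition differs widely. Each covers the 250 bases before a RefSeq transcript start on build GRCm38.p6, on the plus strand, 5′ to 3′. They lie at chr1:107511173-107511422 for Serpinb2 and chr7:24462233-24462482 for Plaur. Capitals mark matches to 3 motifs, each searched on both strands. The AP-1 motif was spelled TGANTCA, where N is any base. The TATA box was searched by the letters TATAAA. The GC box was searched by the letters GGGCGG, whose matches can overlap each other.
Serpinb2: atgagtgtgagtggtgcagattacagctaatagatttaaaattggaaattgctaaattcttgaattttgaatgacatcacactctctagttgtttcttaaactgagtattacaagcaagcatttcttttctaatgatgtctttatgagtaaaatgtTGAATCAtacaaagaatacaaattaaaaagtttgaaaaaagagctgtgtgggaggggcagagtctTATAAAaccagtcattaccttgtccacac
Plaur: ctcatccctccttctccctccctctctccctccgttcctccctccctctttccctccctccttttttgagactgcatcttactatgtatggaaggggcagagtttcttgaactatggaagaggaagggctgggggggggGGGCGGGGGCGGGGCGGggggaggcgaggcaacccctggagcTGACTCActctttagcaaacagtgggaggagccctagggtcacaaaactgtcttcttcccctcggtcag
The AP-1 match begins 94 bases before the start in Serpinb2 and 69 bases before it in Plaur. Serpinb2 has a TATA match that begins 29 bases before the start and 0 GC box matches, and 32.4% of its bases are G or C. These positions depend on the start used. Before another RefSeq start of Serpinb2, the same AP-1 and TATA matches begin 181 and 116 bases away. That window overlaps a Serpinb2 exon, and 38.4% of its bases are G or C. Plaur has 0 TATA matches and 3 GC box matches, which begin 111, 105 and 100 bases before the start, and 59.6% of its bases are G or C.

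Across 32851 RefSeq promoter windows of the same length, 6.75% held the AP-1 letters, 12.4% the TATA letters and 32.7% the GC box letters, and the median G and C content was 52.4%. The Serpine2 window of the same length had 6 GC box matches, 0 AP-1 and 0 TATA matches and 78.8% G and C. The Serpinf1 window had 0 matches to these 3 motifs and 51.6% G and C. Unlike the Serpinb2 and Plaur windows shown, the Serpine2 and Serpinf1 windows overlap annotated exons. The E-box letters CANNTG, held by 66.2% of windows, occurred 0 times in Serpinb2 and Plaur, 1 time in Serpine2 and 4 times in Serpinf1. Plau and Plat had no window in the set used and were not searched. Letters that match a motif do not show that a factor binds there, and letters outside these windows were not searched.

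Serpine2, the protease nexin-1 gene on chromosome 1, was slightly lower in the libraries labelled knockout. It had 42.2, 43.0 and 46.7 CPM in libraries labelled knockout 1 to 3, against 47.8, 50.02 and 54.2 CPM in controls 1 to 3. The groups did not overlap, but library 3 of the group labelled knockout and control 1 nearly met, at a ratio of 1.02. Means were 43.9 ± 2.40 CPM in the libraries labelled knockout and 50.7 ± 3.22 CPM in controls, or a log2 change of -0.21 (SE 0.061, 95% interval -0.34 to -0.074). Serpine2 passed the threshold by a narrow margin, and the call was lost with DESeq2, with limma-voom and without any 1 of the 6 libraries, where the log2 fold change ran from -0.25 without knockout 3 to -0.15 without control 3.

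Serpinf1, the gene on chromosome 11 for the non-inhibitory pigment epithelium-derived factor, was by far the most abundant of the 6 genes and showed no group difference beyond the replicate spread. It had 566, 533 and 547 CPM in libraries labelled knockout 1 to 3, against 566, 530 and 615 CPM in controls 1 to 3. Controls 1 and 2 stood level with the libraries labelled knockout, and control 3 stood above them. The log2 fold change was -0.057 (SE 0.056), and its 95% interval of -0.18 to 0.067 bounds the difference in either direction. Without control 3 it was 0.0027.

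**Figure D2:**
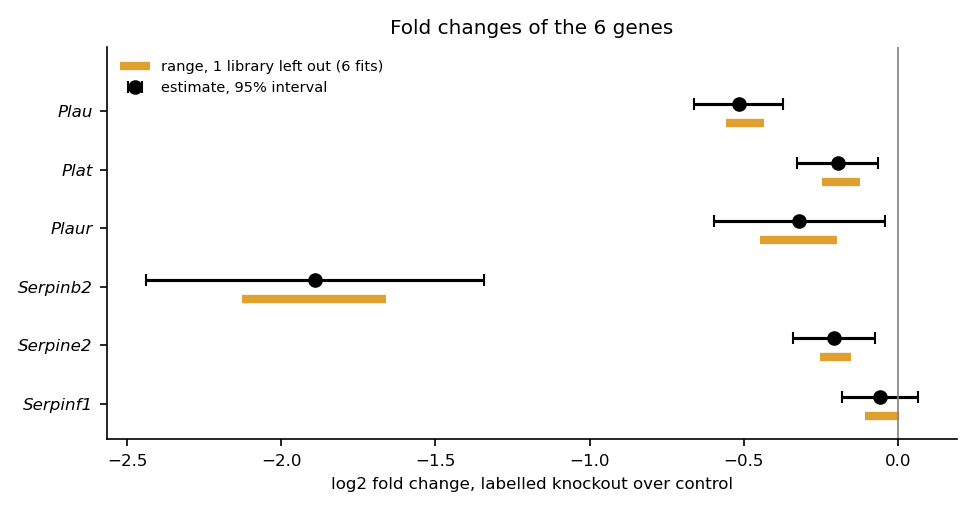
Log2 fold change of the 6 genes, libraries labelled knockout over controls (horizontal axis); points and whiskers are the edgeR estimate and its 95% interval, and orange bars the range over 6 fits that each leave out 1 library. Serpinb2 at -1.89 and Plau at -0.52 lie farthest below 0, and the interval of Serpinf1 includes 0.

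Per transcript length, on the authors' deposited FPKM rounded to whole numbers, Serpinf1 was the highest of the 6 genes and Serpinb2 the lowest. In the libraries labelled knockout the mean FPKM was 231 ± 9.17 for Serpinf1, 33.0 ± 1.73 for Plau, 25 ± 0 for Plat, 11.3 ± 0.577 for Serpine2, 11 ± 2 for Plaur and 1 ± 0 for Serpinb2. In controls it was 243 ± 20.6 for Serpinf1, 47.3 ± 4.93 for Plau, 28.7 ± 3.06 for Plat, 13.7 ± 2.08 for Plaur, 13.3 ± 0.577 for Serpine2 and 4 ± 1 for Serpinb2. Neighbours in these orders did not overlap in any library of a group except Serpine2 and Plaur, which overlapped in both groups and exchanged places between them. Rounding hides differences below 1 FPKM, which matters for Serpinb2.

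The transcripts of the inhibitory serpins Serpine2 and Serpinb2 together summed to 12, 12 and 13 FPKM in libraries labelled knockout 1 to 3, against 16, 17 and 19 FPKM in controls 1 to 3. Summed over both activators, Plau and Plat had 60, 57 and 57 FPKM in libraries labelled knockout 1 to 3, against 73, 70 and 85 FPKM in controls 1 to 3. Neither sum overlapped between the groups. Both sums restate values of genes that this comparison chose, and how often sums of other genes do not overlap was not computed.

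**Figure D3:**
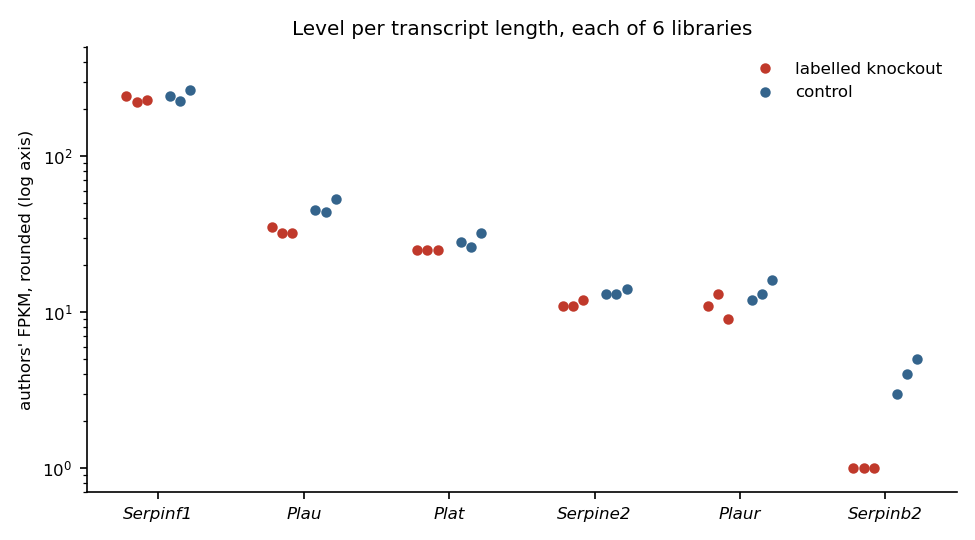
The authors' rounded FPKM (vertical log axis) of the 6 genes in each library, libraries labelled knockout in red left of controls in blue. Serpinf1 stands between 223 and 265 FPKM, the activators between 25 and 53 FPKM, and Serpinb2 at 1 FPKM in the libraries labelled knockout against 3 to 5 FPKM in controls.

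Control 3 held the highest CPM of any library for each of the 6 genes. Its level over the mean of controls 1 and 2 was 1.46 for Serpinb2, 1.24 for Plaur, 1.17 for Plau, 1.15 for Plat, 1.12 for Serpinf1 and 1.11 for Serpine2. The same ratio was 1.09 for the sum of 12 fibroblast and preadipocyte markers and 0.849 for the sum of 10 adipocyte markers. These sums are weighted toward their most abundant genes. Marker by marker, the ratio ran from 1.02 for Acta2 to 1.43 for Ly6a in the fibroblast list, with Dcn at 1.33 and Pdgfra at 1.21. In the adipocyte list it ran from 0.769 for Fabp4 to 0.947 for Lpl. The part of this library's make-up in the differences between groups was not tested beyond the fits without it. In these, the log2 fold change was -1.66 for Serpinb2 and -0.43 for Plau, which both stayed past the threshold. It was -0.20 for Plaur, -0.15 for Serpine2, -0.12 for Plat and 0.0027 for Serpinf1, none of them called.

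Markers of other cell types were given beside these values, since macrophages, mesothelial cells and fibroblasts can express members of this system. Of the 10 adipocyte markers, whose sums are given above, Lipe, Cd36 and Slc2a4 rose and 0 fell with edgeR. For this and the other marker lists, the shares over all tested genes were 6.91% higher and 5.44% lower. Of the 10, 1 had a log2 fold change below 0, as did 50.6% of all tested genes, and the median was 0.20. The median of the 6 genes was -0.26, but this comparison chose them. The 12 fibroblast and preadipocyte markers summed to 11301 to 11677 CPM in the libraries labelled knockout and 11161 to 12743 CPM in controls. Of these 12, Lum (log2 fold change -1.04), Dcn (-1.01), Thy1 (-0.42) and Pdgfra (-0.38) fell and Postn (0.20) rose. Pdgfra, a receptor gene that marks preadipocytes, was at 183 ± 15.4 CPM in the libraries labelled knockout and 238 ± 28.1 CPM in controls, and Col1a1, the most abundant of the list, at 4092 ± 94.0 and 4246 ± 393 CPM in the same order. The part of such cells, or of the adipocyte genes' shift, in the levels of Plau and Serpinb2 was not tested.

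Of 12 macrophage markers 4 were measured, namely Cd14, Cd68, Csf1r and Lyz2, and they summed to 6.70 to 8.16 CPM in the libraries labelled knockout and 5.48 to 7.40 CPM in controls. Of 6 mesothelial markers 2 were measured, with sums of 2.56 to 4.29 CPM and 4.24 to 6.29 CPM in the same order, of which the keratin gene Krt19 fell. Of 8 endothelial markers 4 were measured, with sums of 3.53 to 4.30 CPM in the libraries labelled knockout and 2.30 to 3.83 CPM in controls. Of 6 mural markers 4 were measured, with sums of 127 to 144 CPM and 121 to 133 CPM in the same order, and Cspg4 and Notch3 rose. The defining markers Adgre1 and Msln were not found by name among the 13962 genes. Pecam1 was at 0.419 ± 0.143 CPM in the libraries labelled knockout and 0.629 ± 0.0969 CPM in controls. The 8 proliferation genes summed to 1091 to 1176 CPM in the libraries labelled knockout and 1139 to 1194 CPM in controls, and Mki67 was at 295 ± 14.0 CPM in the libraries labelled knockout and 295 ± 18.8 CPM in controls.

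**Figure D4:**
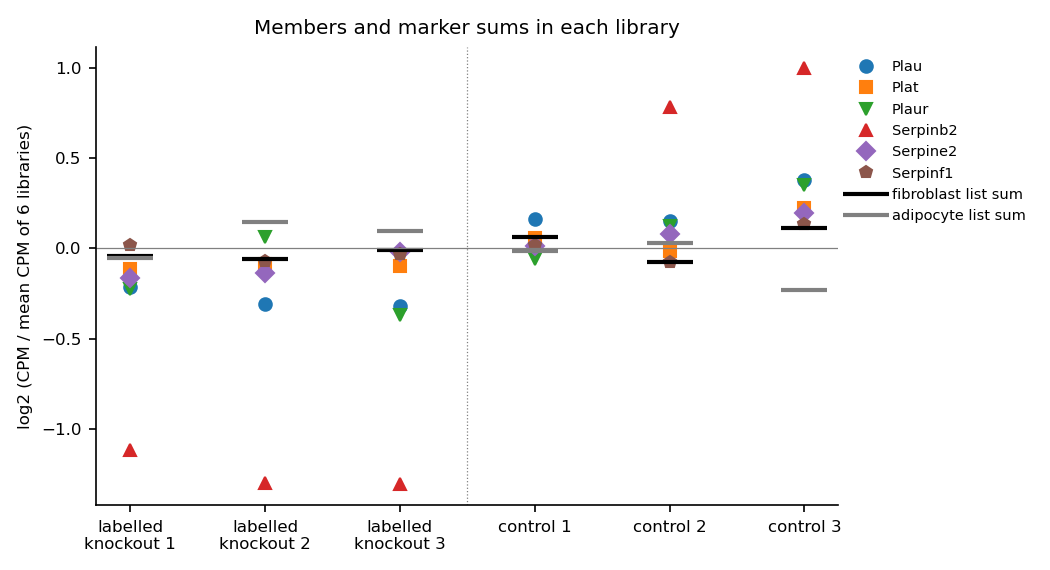
Log2 of each library's CPM over the mean of the 6 libraries (vertical axis) for the 6 genes (symbols) and for the summed fibroblast and adipocyte markers (dashes), libraries labelled knockout left of controls. All 6 genes are highest in control 3, where the fibroblast sum is 12743 CPM and the adipocyte sum, at 11484 CPM, is the lowest of the libraries.

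Among other genes listed around the plasminogen system, coagulation genes and further serpins included, most of those that changed fell. Over 7 lists of receptors, ligands, substrates, serpins and coagulation genes, with the 6 genes left out, 1 of 46 tested genes rose and 12 fell, at a median log2 fold change of -0.15, against 6.91% and 5.44% of all tested genes and a median of -0.0025. Without knockout 3, 5 of these genes fell, and without control 1, 6 did. Since the lists were chosen with earlier results of these data known, these counts describe them only. Plasminogen itself (Plg), the plasminogen receptor gene Plgrkt, the antiplasmin gene Serpinf2 and the vitronectin gene Vtn were not found by name among the 13962 genes.

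Of 4 tested activators and contact proteases the 1 that fell was Plau. Prss23, a secreted serine protease gene, was at 352 ± 16.4 CPM in the libraries labelled knockout and 379 ± 41.8 CPM in controls (edgeR adjusted p 0.350). Of 2 tested kringle ligands Hgf fell, and Mst1, which encodes macrophage-stimulating protein, was at 1.71 ± 0.450 CPM in the libraries labelled knockout and 1.06 ± 0.271 CPM in controls (edgeR adjusted p 0.117).

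Among receptors, docking and clearance genes, Plaur included, edgeR found that 0 of 14 rose and 4 fell, and 0 rose with DESeq2 or limma-voom. At an unadjusted p under 0.05 in edgeR, 0 were higher and 7 lower. The share of all tested genes at that unadjusted cut was not computed, and the shares given above are for adjusted p. Counts at an unadjusted p, here and below, therefore have no share to be read against. Lrp1, which clears protease and serpin complexes, was at 1115 ± 22.6 CPM in the libraries labelled knockout and 1337 ± 121 CPM in controls (log2 fold change -0.26, SE 0.063, edgeR adjusted p 0.0222). The integrin subunit genes Itgb3 (log2 -0.33), Itgb1 (-0.18) and Itgav (-0.17), whose products bind matrix proteins and partner with the urokinase receptor, also fell, with edgeR adjusted p of 0.0298, 0.0298 and 0.0412. Calls were lost for Lrp1 without control 1 or any 1 library labelled knockout (log2 -0.28 to -0.25), for Itgb3 and Itgb1 each without control 1, control 3, knockout 1 or knockout 3 (log2 -0.34 to -0.27 and -0.19 to -0.15), and for Itgav without control 1, control 2, knockout 1 or knockout 3 (log2 -0.17 to -0.12). The Itgav call was also lost with DESeq2 (log2 -0.16, adjusted p 0.0504), which called 3 genes of this list lower, and with the replicate number as a block (log2 -0.17, edgeR adjusted p 0.0517).

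The annexin A2 complex, which gathers plasminogen and the tissue-type activator on cell surfaces, showed no called change. Anxa2 was at 826 ± 67.3 CPM in the libraries labelled knockout and 870 ± 45.7 CPM in controls (edgeR adjusted p 0.495), and its partner S100a10 at 138 ± 7.27 CPM and 138 ± 3.98 CPM in the same order (edgeR adjusted p 0.974).

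Of 7 inhibitors of activators and plasmin, 0 rose with edgeR, DESeq2 or limma-voom, and 0 were higher at an unadjusted p under 0.05 in edgeR. The 2 that fell were Serpine2 and Serpinb2. The neuroserpin gene Serpini1, at 1.93 ± 0.166 CPM in the libraries labelled knockout and 2.49 ± 0.573 CPM in controls, and the C1 inhibitor gene Serping1, at 2.79 ± 0.377 and 3.17 ± 0.636 CPM in the same order, were expressed at low levels, with edgeR adjusted p of 0.288 and 0.564. Of 10 further serpins edgeR, DESeq2 and limma-voom each called 0, and 3 were higher and 2 lower at an unadjusted p under 0.05 in edgeR. These 10 include Serpinf1 and the collagen chaperone gene Serpinh1, which was at 886 ± 28.2 CPM in the libraries labelled knockout and 918 ± 53.1 CPM in controls.

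Of 8 genes for substrates of plasmin or urokinase, 0 rose and 5 fell with edgeR, as with DESeq2 and limma-voom. At an unadjusted p under 0.05 in edgeR, 1 was higher, namely Mst1. This list shares Hgf and Mst1 with the kringle ligands, so the counts by list are not separate. In the total over the lists, each gene was counted 1 time. Mmp3, the stromelysin-1 gene, whose proenzyme plasmin can activate, was at 1.18 ± 0.365 CPM in the libraries labelled knockout and 3.24 ± 0.834 CPM in controls (log2 -1.46, SE 0.27, edgeR adjusted p 0.00702). Hgf, the hepatocyte growth factor gene, whose precursor urokinase can cleave, was at 15.04 ± 1.05 CPM in the libraries labelled knockout and 23.9 ± 1.97 CPM in controls (log2 -0.67, SE 0.085, edgeR adjusted p 0.000936). The fibronectin gene Fn1 fell to 7194 ± 224 CPM in the libraries labelled knockout, against 9829 ± 683 CPM in controls (log2 -0.45). The thrombospondin gene Thbs1 (log2 -0.30) and Ltbp1 (log2 -0.25), which encodes a protein that stores latent TGF-beta in matrix, also fell. The call was lost for Thbs1 without knockout 3 (log2 -0.29), and for Ltbp1 without control 1, control 3 or any 1 library labelled knockout (log2 -0.27 to -0.20).

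Among 10 coagulation genes 1 rose and 3 fell. F3, which encodes tissue factor, the trigger of clotting, was the 1 that rose, to 101 ± 4.67 CPM in the libraries labelled knockout against 81.4 ± 7.47 CPM in controls (log2 0.32, SE 0.065, edgeR adjusted p 0.0105). Thbd, the gene of the thrombin-binding anticoagulant receptor thrombomodulin, fell to 153 ± 14.8 CPM in the libraries labelled knockout, against 232 ± 43.2 CPM in controls (log2 -0.60, SE 0.11, edgeR adjusted p 0.00679). The vitamin K-dependent proteins Gas6 (log2 -0.68) and protein S, from Pros1 (log2 -0.33), also fell. The call for Pros1 was lost without control 1, control 3, knockout 2 or knockout 3 (log2 -0.34 to -0.26). The thrombin receptor gene F2r was at 194 ± 5.92 CPM in the libraries labelled knockout and 213 ± 13.2 CPM in controls (edgeR adjusted p 0.104).

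**Figure D5:**
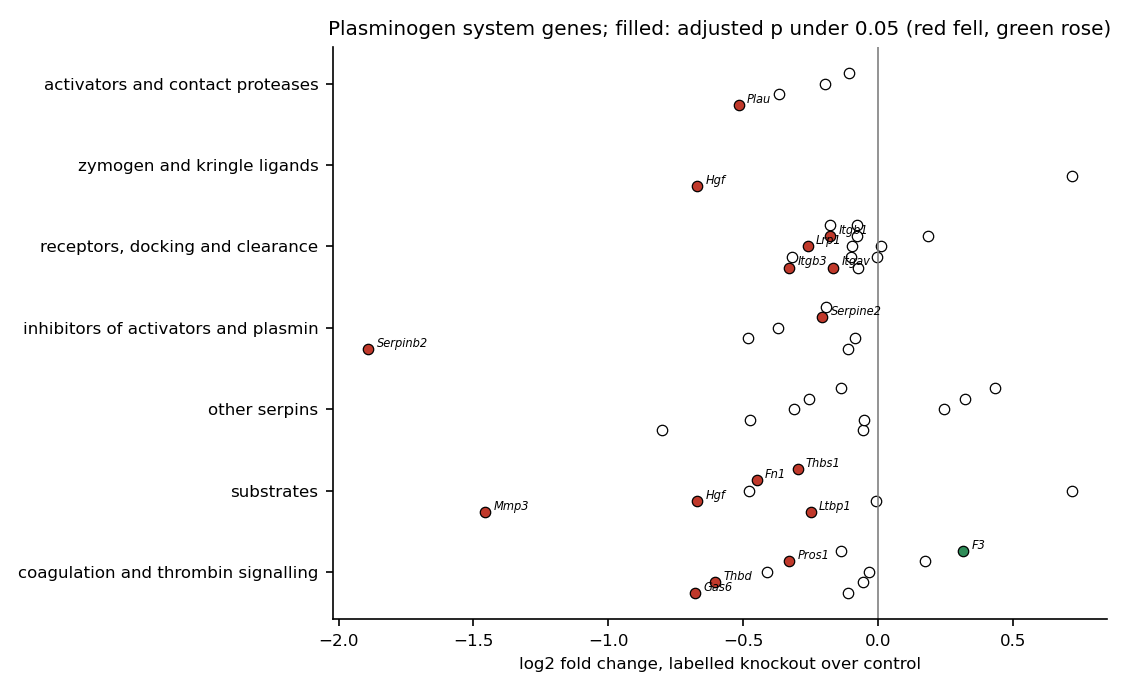
Log2 fold change, libraries labelled knockout over controls (horizontal axis), of the tested genes in 7 lists around the plasminogen system, the 6 genes included. Filled points passed an edgeR adjusted p under 0.05, red for lower and green for higher. Vertical offsets within a list carry no meaning. Serpinb2 and Mmp3 lie farthest to the left, and F3 is the filled point to the right of 0.

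The genes whose profiles lay nearest to each of the 6 were found by the root mean square difference of centred log2 CPM over the 6 libraries, among 9829 genes whose mean reached 5 CPM. Nearest to Plau were the epidermal growth factor receptor gene Egfr (0.039), the mitochondrial carrier gene Slc25a24 (0.043) and Fap (0.044), which encodes a membrane serine protease of activated fibroblasts. Egfr was at 57.1 ± 1.71 CPM in the libraries labelled knockout and 82.2 ± 8.996 CPM in controls, with a log2 fold change of -0.53, and Fap at 5.43 ± 0.285 and 7.80 ± 0.613 CPM in the same order. The measure takes in the difference between groups, so by construction near genes tend to have similar fold changes. Nearest to Serpinb2 were Greb1 (0.31), Il1rn (0.32) and Sema3a (0.33), at larger distances. Nearest to Plat were Sipa1l2 (0.017), Plec (0.025) and Myof (0.026), and to Plaur Zfp951 (0.067), Tpd52 (0.077) and Rtkn2 (0.080). Nearest to Serpine2 were Fnip2 (0.030), Lrrc61 (0.033) and Tshz3 (0.037), and to Serpinf1 Calcoco1 (0.013), Sesn2 (0.017) and Tcof1 (0.019).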

How the data were processed

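Per the file headers, the authors deposited raw read counts per gene and FPKM values, which were rounded to whole numbers and therefore treated as a score. The submitters' processing notes name build mm9, Novoalign 2.8, Picard and DESeq2 without roles. The counter, its annotation and its strand setting are not given there. Counts were tested with edgeR 4.0.16 in R 4.3.3: filterByExpr kept 13192 of 13962 genes, TMM factors scaled the libraries, and the quasi-likelihood test with Benjamini-Hochberg adjustment over all tested genes used a threshold of 0.05. Each SE was the log2 fold change over the square root of F, and intervals are 95%. The script was tested on simulated data. Libraries of a group differed beyond counting noise (chi-square per degree of freedom 2.88 to 7.53). Same-numbered libraries did not deviate together in every pair.

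Alternatives were DESeq2 1.42.0, limma-voom (limma 3.58.1), other scalings, no filter, a replicate block and leaving out each library. The 6 genes and all lists were chosen with earlier results of these data known. Named genes were the 6 genes, called members of each list (at most 8 per list), a fixed few, and the 3 nearest profiles (log2 of CPM plus 0.5), without unnamed gene models; Serpinb8, Serpinh1, Prss23, Mst1, F2r and further uncalled marker genes were named after their values were seen. Promoter sequences came from RefSeq (GRCm38.p6). The set used held no window for Plau or Plat, so these genes were not searched for motifs. Windows overlapping an exon were searched but are not shown. Protein sequences were not analysed here, and a few list members are not reported here.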

Additional observations from a re-analysis of the deposited data

How the results depend on the processing

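Serpinb2 and Plau kept their direction and their call in all 12 alternatives, with log2 fold changes of -2.13 to -1.66 and -0.56 to -0.43. The genes of the set that were called numbered 2 to 4 over the alternatives, with Serpine2 lost under DESeq2, limma-voom and each of the 6 fits without 1 library, and Plat gained without control 2. Leaving out 1 library moved the count of changed genes from 1629 to between 621 and 1895 (332 to 1025 rose, 289 to 870 fell) and the called genes of the 7 lists outside the set from 13 to between 6 and 16. Such fits rest on 5 libraries. Small values that changed sign were those of Serpinf1 without control 3 (0.0027) and S100a10 with DESeq2 (0.00029) or without knockout 1 (0.014), knockout 3 (0.024) or control 1 (0.023; range -0.047 to 0.024). Over all 6 libraries the rounded FPKM of Serpine2 (11, 11, 12, 13, 13 and 14) and Plaur (11, 13, 9, 12, 13 and 16) had the same mean. Their order by level was therefore a tie. On CPM per kb of GENCODE exon length, and without knockout 3 or control 1, Plaur ranked 4 and Serpine2 5.

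Labels give both groups replicate numbers 1 to 3. Deviations from the group means of libraries with the same number correlated at -0.11, 0.33 and 0.064 over genes, so the numbers were not taken to pair the libraries. With the replicate block 1809 genes changed, 4 of the 6 genes were called, Plat (log2 -0.19) among them, and Serpinb2 stood at -1.86 and Plau at -0.51; the Itgav call was lost (adjusted p 0.0517). Low depth limits Serpinb2, which rests on 35 to 44 counts per library labelled knockout.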
